A study of Mus musculus with 4 samples.

Results

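IL6 added to TGFb in T-effector cells was followed on 7 of the 26 single-channel profiles of a mouse CD4+ T cell series. The profiles were chosen by the labels alone. On each 2-colour array 1 dye carried RNA of the cells labelled Treg and the other RNA of the cells labelled T-effector. The main comparison is between T-effector channels. The fit behind it held all 26 channels, Treg dye included, which share 1 estimate of the spread. The 7 profiles are 3 arrays of cells given TGFb and 4 arrays of cells given TGFb with IL6. All cells were CD4+ cells from mouse lymph node, held on an anti-CD3 coat (1 ug/ml) through 4 days of culture, and IL2 (100 units/ml) was present in every condition during the 3 days of cytokine exposure. TGFb was used at 4 ng/ml and IL6 at 25 ng/ml. The series also holds 3 arrays of IL2 alone and 3 of IL2 with IL6, which give the IL6 response without TGFb in 6 T-effector profiles. Strain, age, genotype and the way Treg and T-effector cells were told apart are not given in the labels. They also do not name the culture or mouse behind each array, so the p-values below measure the spread between arrays, which may be technical.

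Naive CD4 T cells that meet TGFb during activation can take on the regulatory programme led by the transcription factor Foxp3. IL6 signals through Il6ra and the shared receptor chain Il6st to the transcription factor Stat3, and IL6 together with TGFb is the textbook combination for Th17 cells, which make the cytokines Il17a and Il17f. The question the conditions address is how IL6 alters the response of CD4 T cells to TGFb.

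Signals are given on the log2 scale after normalization between arrays, and a log2 difference is TGFb with IL6 minus TGFb within T-effector cells, so 1 unit is a doubling. Of 19932 genes tested with limma, 1493 (7.49%) passed a Benjamini-Hochberg adjusted p of 0.05. IL6 raised 849 of them (4.26% of genes tested) and lowered 644 (3.23%), and the median over all genes was -0.03. When arrays were only centred on their medians, 361 genes passed, of which 81.7% were higher, against 56.9% in the main analysis. Large changes were mostly increases: 45 called genes lay above a log2 difference of 2 and 7 below -2. The plot of all genes shows this asymmetry. Median centring also left 6 higher Th17 genes, 6 of the IL6 list, 4 of the TGFb list, 3 of the interferon list and 2 lower Th1 genes, whose main counts follow. The arrays lay on slides that also differed in quality. From 42.1% to 67.1% of probes were well above background in the 7 T-effector channels. Position on the slide, in blocks of rows and columns, accounted for 51.2% and 35.9% of the log-ratio variance on the 2 arrays of slide E, and at most 14.1% on the other 5 arrays. Arrays 1, 2 and 3 of both conditions shared a slide and a dye number by number. Array 4 of TGFb with IL6 lay on slide B as well, with its dyes swapped against array 2. Without slide B, D or E the count of called genes was 600, 650 or 791. With the 7 T-effector channels only it was 618, and 14 of the named calls were lost.

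**Figure D1:**
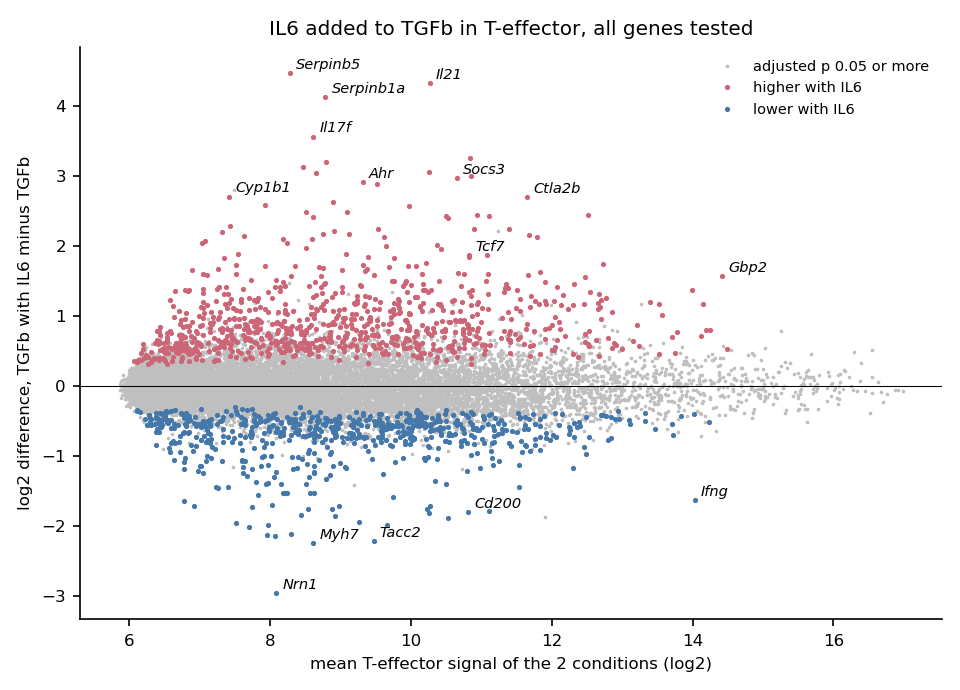
Each point is 1 of 19932 genes in T-effector cells, with the mean log2 signal of both conditions on the x axis and the log2 difference (TGFb with IL6 minus TGFb) on the y axis. Red and blue points passed the adjusted p of 0.05 (849 higher, 644 lower), and the points furthest from 0 lie on the upper side, among them Il21 and Serpinb1a; Serpinb5 and Cyp1b1 are plotted at fitted values against a TGFb group that was not well above background, so their height is not a measured size.

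The label of the cells was checked first. Foxp3, the lineage factor of regulatory T cells, was higher in the Treg dye than in the T-effector dye on all 13 arrays, by 1.72 to 2.71 log2 units. Of 12 CD4 T cell marker genes tested, 0 passed limma's threshold for IL6 (4 at an unadjusted p under 0.05) and their summed linear signal overlapped between conditions, with 51774 to 60205 in TGFb and 54634 to 62526 in TGFb with IL6. The B cell genes Cd22, Pax5 and Blk were not well above background on any of the 7 arrays, nor were the neutrophil gene S100a9 and the NK cell gene Ncr1. These were the only such members of their lists. By contrast, 7 of 12 B cell, 6 of 11 myeloid and 6 of 12 CD8 and NK markers were well above background on all arrays of either condition. The summed signal of the 12 B cell markers was 3161 to 4426 in TGFb and 1938 to 3578 in TGFb with IL6. Cd74 (log2 difference -1.38, SE 0.13, adjusted p = 3.67e-07) and Ighm (log2 difference -1.03, SE 0.12, adjusted p = 5.48e-06), of the antigen presentation and immunoglobulin machinery, fell within that list. Of 12 CD8 and NK markers, the lectin receptor genes Klrd1 (log2 difference 1.85, SE 0.23, adjusted p = 8.88e-06) and Klrc1 (log2 difference 1.09, SE 0.19, adjusted p = 7.22e-04) rose, while the summed signal overlapped, with 3653 to 4514 in TGFb and 4212 to 5148 in TGFb with IL6. The part of other cells in these results was not tested, and in bulk RNA fewer cells of a type and less RNA per cell cannot be told apart.

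The cytokine genes Il17f, Il17a, Il21 and Il10 and the receptor gene Il1r1 rose with IL6, and Foxp3 did not pass the test. Of 22 Th17 genes tested, 9 rose and 1 fell, the cytokine gene Csf2 (log2 difference -1.13, SE 0.14, adjusted p = 1.57e-05), named after its value was seen. The list's median log2 difference was 0.48, beside -0.03 over all genes. For every list count the shares over all genes are 4.26% higher and 3.23% lower. Members and lists were chosen with earlier results of these data known, so list counts and medians are descriptions and not tests. On the mm7 build that the scanner files use, the Il17f probe is placed at chr1:20973592-20974937, the Ahr probe at chr12:33345024-33345083 and the Tcf7 probe at chr11:52209369-52209428. Il17f, the cytokine that often pairs with Il17a, had log2 signals of 7.11, 6.70 and 6.68 on the 3 TGFb arrays and 10.54, 10.19, 10.37 and 10.45 on the 4 arrays of TGFb with IL6. All 4 lay above all 3, a separation that 6.88% of genes tested showed upward and 7% downward, and the change was 11.9-fold (log2 difference 3.57, SE 0.12, adjusted p = 3.93e-14). The pairs on 1 slide gave differences of 3.43 on slide E, 3.49 on slide B and 3.69 on slide D. Il17a, the founding cytokine of the family, read 7.06, 6.66 and 6.81 without IL6 and 8.55, 7.89, 8.01 and 7.55 with it. The groups did not overlap either, but the change was smaller, 2.29-fold (log2 difference 1.20, SE 0.17, adjusted p = 4.45e-05).

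Il21, a cytokine that Th17 and follicular helper cells make, read 8.45, 7.95 and 7.95 in TGFb and 12.84, 12.15, 12.36 and 12.30 in TGFb with IL6, a 20.1-fold rise (log2 difference 4.33, SE 0.36, adjusted p = 3.71e-08). Il10, an anti-inflammatory cytokine, read 6.95, 7.58 and 7.23 without IL6 and 9.20, 10.20, 9.37 and 10.25 with it, a 5.64-fold rise (log2 difference 2.50, SE 0.29, adjusted p = 4.90e-06). In both, every array with IL6 was above every array without it. The receptor gene Il1r1, through which IL1 acts on Th17 cells, was not well above background on any TGFb array and read 8.22, 8.17, 7.97 and 8.02 with IL6, 4.13-fold above a floor (adjusted p = 7.64e-10). Such bounds set the mean of the brighter group against the lowest signal well above background on each dim array.

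The nuclear receptor gene Rora rose by less than Il17f and Il21. It read 6.54, 6.77 and 6.41 without IL6 and 7.18, 7.57, 7.08 and 7.55 with it (log2 difference 0.76, SE 0.16, adjusted p = 0.00433). Its arrays did not overlap between conditions, and it lost its call in 5 of 24 alternative settings. Foxp3 read 6.37, 7.19 and 6.72 in TGFb and 6.35, 7.20, 6.81 and 7.08 in TGFb with IL6, so the 2 groups covered the same range. Its log2 difference was 0.07 with a 95% interval of -0.38 to 0.51, which leaves room for a moderate change in either direction. Other Th17 genes not past the threshold were Il22 at 0.97 (adjusted p = 0.231), the chemokine Ccl20 at -0.62 (0.582), its receptor Ccr6 at -0.12 (0.85), and the factors Batf at 0.60 (0.348), Maf at 0.36 (0.73) and Irf4 at 0.37 (0.428, with 1 array missing). The IL23 receptor gene Il23r was well above background on 0 of 3 TGFb arrays and on 2 of 4 with IL6.

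**Figure D2:**
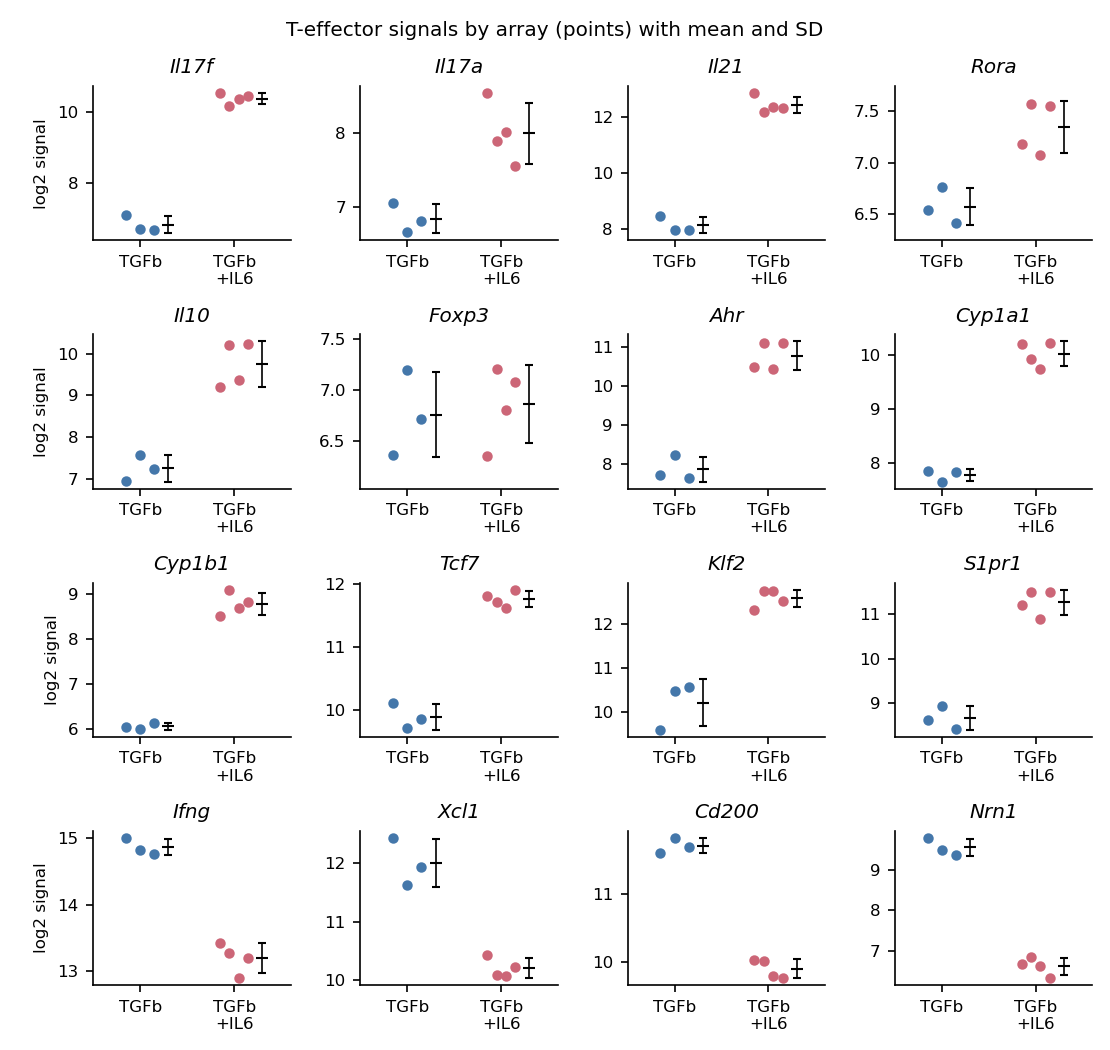
Log2 signals of 16 genes in T-effector cells, with 1 point per array (3 of TGFb, 4 of TGFb with IL6) and the mean with its SD beside them; the y axis is a log2 scale that differs between panels. The groups are apart in 15 panels and cover the same range for Foxp3.

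Genes of the IL6 and Stat3 pathway rose with IL6: 11 of 24 tested were higher and 0 lower, with a median of 0.59. Socs3, the feedback inhibitor that Stat3 induces, read 8.81, 9.33 and 9.30 without IL6 and 11.78, 12.29, 12.12 and 12.41 with it, a 7.9-fold rise (log2 difference 2.98, SE 0.24, adjusted p = 2.48e-08) with slide pairs at 2.97 on slide E, 2.96 on slide B and 2.82 on slide D. The shared receptor chain Il6st rose 2.15-fold (log2 difference 1.11, SE 0.11, adjusted p = 8.40e-07) and the factor Cebpd 3.31-fold (log2 difference 1.73, SE 0.24, adjusted p = 5.46e-05). Stat3 itself rose 1.51-fold (log2 difference 0.59, SE 0.14, adjusted p = 0.0121), and this call was lost in 5 of 24 settings. Socs1, another feedback inhibitor, was 2.77-fold higher (log2 difference 1.47, SE 0.42, adjusted p = 0.0339), lost in 10 of 24. The ligand-binding chain Il6ra gave -0.05 with an interval of -0.53 to 0.44 and overlapping arrays. The list held 5 higher genes without slide B, 5 without slide D, and 6 without slide E or without TGFb array 1.

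Of 13 Ahr pathway genes tested, 6 rose and 0 fell, and the median was 0.50. Ahr is a ligand-activated transcription factor that Th17 cells express, and Cyp1a1, Cyp1b1, Tiparp and Ahrr are textbook targets of it. Ahr read 7.72, 8.22 and 7.64 on the TGFb arrays and 10.47, 11.09, 10.44 and 11.08 with IL6, a 7.58-fold rise (log2 difference 2.92, SE 0.18, adjusted p = 7.64e-10), with slide pairs at 2.76 on slide E, 2.87 on slide B and 2.79 on slide D. Cyp1a1, a xenobiotic-metabolising enzyme, read 7.86, 7.66 and 7.83 without IL6 and 10.21, 9.93, 9.75 and 10.23 with it, a 4.66-fold rise (log2 difference 2.22, SE 0.30, adjusted p = 3.45e-05). Cyp1b1 was not well above background on any T-effector TGFb array and read 8.51, 9.09, 8.68 and 8.80 with IL6, 6.46-fold above the floor (adjusted p = 6.62e-12), while another Cyp1b1 probe gave 0.20 and did not pass. Outside TGFb with IL6, Cyp1b1 was well above background only in 1 Treg channel with TGFb. It thus passed the probe filter through the condition where it was high, and its p-value gives no support. Every array with IL6 was above every TGFb array for these 3 genes. Tiparp, which restrains Ahr by ADP-ribosylation, rose 3.72-fold (log2 difference 1.90, SE 0.20, adjusted p = 9.54e-07), and the repressor gene Ahrr, named outside the naming rule, also passed (log2 difference 1.26, SE 0.21, adjusted p = 3.07e-04). These targets are shown because their promoters hold the core of the Ahr response element, GCGTG on either strand, written in capitals (CACGC is its other strand). The stretches end before the annotated start and are from RefSeq, build GRCm38.p6, written 5′ to 3′ on the gene's strand.
Cyp1a1 (chr9:57697519-57697603, plus strand): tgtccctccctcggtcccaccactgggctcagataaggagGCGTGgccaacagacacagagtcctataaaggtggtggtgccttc
Cyp1b1 (chr17:79715093-79715177, minus strand): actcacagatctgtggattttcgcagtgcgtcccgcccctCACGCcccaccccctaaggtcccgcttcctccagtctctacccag
Tiparp (chr3:65528237-65528321, plus strand): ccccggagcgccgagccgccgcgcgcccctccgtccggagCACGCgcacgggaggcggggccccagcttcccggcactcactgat
Ahrr (chr13:74292332-74292478, minus strand): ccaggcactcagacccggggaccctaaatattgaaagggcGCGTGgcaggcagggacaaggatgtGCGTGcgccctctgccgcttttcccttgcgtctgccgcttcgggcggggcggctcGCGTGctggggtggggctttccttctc
The first has its motif 54 bases upstream of the start, and Ahrr holds 3 copies in its stretch. The motif is common: GCGTG stood in 32.4% of all 32851 promoters of 300 bases in the table, in 45% of those of tested genes, in 43.7% of those of genes higher with IL6 and in 49.5% of those of genes lower with IL6. A match is a description of letters and not a binding site.

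The motifs of Stat and Ror factors were set beside the cytokine genes in the same way. Socs3 holds the Stat palindrome TTCNNNGAA, and Il17f and Il17a each hold the Ror motif AGGTCA, shown for Il17a as its complement.
Socs3 (chr11:117969472-117969560, minus strand): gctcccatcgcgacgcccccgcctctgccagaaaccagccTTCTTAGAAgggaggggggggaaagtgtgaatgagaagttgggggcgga
Il17f (chr1:20784283-20784368, minus strand): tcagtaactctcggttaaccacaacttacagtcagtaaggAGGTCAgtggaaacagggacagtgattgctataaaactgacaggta
Il17a (chr1:20730745-20730830, plus strand): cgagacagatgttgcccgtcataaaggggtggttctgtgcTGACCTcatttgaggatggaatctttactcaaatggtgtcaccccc
Both strands were counted, and 8.3% of all promoters and 7.15% of those of tested genes held TTCNNNGAA, against 8.13% for genes higher and 7.17% for genes lower with IL6. AGGTCA stood in 16.3% of all promoters, 13.6% of those of tested genes, 15.3% for genes higher and 13.5% for genes lower. The Smad element CAGACA stood in 21%, 17.4%, 18.3% and 16.3% of the same 4 sets, and the AP-1 site TGANTCA in 7.81%, 6.02%, 8% and 5.33%. These shares were not tested. The genes shown are a choice. TTCNNNGAA also stood in promoters of named genes that rose (Il7r, Sgk1), fell (Ifng, Lta, Nkg7) or did not pass (Bcl6, Ccr6, Foxp3), among others. AGGTCA also stood in those of genes that rose (Tcf7, Hif1a), fell (Il2, Eno3) or did not pass (Il23r, Ccr6, Ccl20), among others. Of the 103 genes that the naming rule picks, 75 have a promoter in the table.

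Genes of naive and memory T cells rose with IL6: 11 of 21 tested were higher and 1 lower, Dapl1 (log2 difference -1.44, SE 0.14, adjusted p = 4.18e-07), named after its value was seen, and the median was 0.70. Tcf7, the transcription factor of naive and memory T cells, read 10.11, 9.70 and 9.85 in TGFb and 11.81, 11.71, 11.62 and 11.91 with IL6, a 3.66-fold rise (log2 difference 1.87, SE 0.26, adjusted p = 5.46e-05), and all 4 arrays lay above all 3. S1pr1, the receptor for exit from lymph nodes, read 8.63, 8.95 and 8.43 without IL6 and 11.20, 11.49, 10.90 and 11.49 with it (log2 difference 2.57, SE 0.41, adjusted p = 2.44e-04). Its activator Klf2 rose 4.77-fold (log2 difference 2.26, SE 0.43, adjusted p = 0.00135) by its brightest probe, while another probe gave 0.013 and did not pass. The IL7 receptor Il7r rose 3.25-fold (log2 difference 1.70, SE 0.16, adjusted p = 3.04e-07) and Igfbp4 5.61-fold (log2 difference 2.49, SE 0.21, adjusted p = 5.23e-08). Lef1, a partner factor of Tcf7, gave 0.45 (adjusted p = 0.214) and did not pass. Without slide B or D the list held 8 higher genes, and without slide E 11.

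Receptors for trafficking and cytokines rose more often than they fell. Among chemokine receptors and adhesion genes 10 of 24 rose and 1, Ccr4 (log2 difference -0.91, SE 0.22, adjusted p = 0.00997), fell. Gpr15, a gut homing receptor, read 6.84, 6.50 and 6.59 without IL6 and 9.83, 8.77, 9.52 and 8.71 with it, a 6.01-fold rise (log2 difference 2.59, SE 0.25, adjusted p = 4.18e-07), with 2 of 3 TGFb arrays well above background. Its arrays were apart. The Ccr4 call was lost without slide B or D or TGFb array 1. Of 23 cytokine receptors 8 rose and 1 fell, and 0 fell without slide D or E or TGFb array 1 or 3. Il17ra rose 2.98-fold (log2 difference 1.58, SE 0.20, adjusted p = 1.37e-05) and Il4ra 2.5-fold (log2 difference 1.32, SE 0.22, adjusted p = 3.51e-04), the receptors of IL17 and IL4.

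TGFb pathway genes also rose in cells that had TGFb in both conditions: 8 of 28 were higher, 0 lower, with a median of 0.15. The inhibitory Smad gene Smad7 read 8.14, 8.22 and 7.88 without IL6 and 9.22, 9.52, 9.01 and 9.80 with it (log2 difference 1.34, SE 0.20, adjusted p = 9.60e-05). Ldlrad4, an inhibitor of TGFb signalling, rose 2.67-fold (log2 difference 1.41, SE 0.17, adjusted p = 6.66e-06), the ligand gene Tgfb3 2.26-fold (log2 difference 1.18, SE 0.14, adjusted p = 3.91e-06) and the helix-loop-helix gene Id2 2.4-fold (log2 difference 1.26, SE 0.15, adjusted p = 4.59e-06). No overlap was seen between the arrays of Smad7. Tgfb1 (-0.29, adjusted p = 0.62) and the induced inhibitor Pmepa1 (0.35, 0.362) did not pass. Without slide B, 5 of the list's genes were higher.

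Of 24 Th1 and cytotoxic genes, 7 fell and 1 rose, with a median of -0.09; no list member rose without slide B, D or E, TGFb array 1 or 3, or array 2 or 4 of TGFb with IL6, or with the replicate block, and 2 rose without array 1 of TGFb with IL6. The chemokine gene Xcl1 read 12.43, 11.62 and 11.93 in TGFb and 10.44, 10.09, 10.08 and 10.23 with IL6 (log2 difference -1.79, SE 0.20, adjusted p = 2.34e-06), and all 3 TGFb arrays lay above the other 4. Ifng, the signature cytokine of Th1 cells, averaged 14.86 ± 0.12 (SD, n = 3) in TGFb and read 13.43, 13.28, 12.90 and 13.20 with IL6. Its arrays did not overlap either, yet its error over all conditions was wide (log2 difference -1.62, SE 0.44, adjusted p = 0.0244), its adjusted p was 0.0683 with the replicate block, and the call was lost in 12 of 24 settings. Nkg7 of cytotoxic granules fell by 1.44 on the log2 scale (SE 0.16, adjusted p = 2.56e-06) and the death ligand Fasl fell by 1.18 (SE 0.15, adjusted p = 1.23e-05). The lineage factors Tbx21 (-0.50, adjusted p = 0.595) and Gata3 of Th2 cells (-0.98, 0.238) did not pass.

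The follicular helper list split, with 5 of 14 higher and 4 lower. The receptor Cxcr5 rose 2.52-fold (log2 difference 1.33, SE 0.18, adjusted p = 2.40e-05), with 1 of 3 TGFb arrays well above background, while the surface protein gene Cd200 read 11.60, 11.82 and 11.69 in TGFb and 10.04, 10.01, 9.80 and 9.78 with IL6 (log2 difference -1.80, SE 0.13, adjusted p = 3.63e-09), and the adaptor Sh2d1a fell (log2 difference -1.58, SE 0.26, adjusted p = 3.20e-04). Bcl6, the factor of that lineage, gave 0.94 and did not pass (adjusted p = 0.33), with TGFb arrays at 7.54, 6.61 and 8.30. The Treg list split likewise, 7 of 26 higher and 4 lower: Il10, the lectin Lgals3 (log2 difference 1.88, SE 0.32, adjusted p = 5.11e-04) and Socs2 (log2 difference 1.23, SE 0.30, adjusted p = 0.0132) were among the higher genes, and the surface molecules Cd83 (log2 difference -1.95, SE 0.20, adjusted p = 9.35e-07) and Tnfrsf9 (log2 difference -1.76, SE 0.13, adjusted p = 6.81e-09) among the lower. A further probe of Tnfrsf9 gave 0.07. Without slide B the Treg list held 3 higher genes and the follicular list 3, and without slide D 4 and 2. The follicular list held 2 lower genes without slide B and 1 with median centring. Without slide E, TGFb array 1, TGFb array 3 or array 2 of TGFb with IL6 the Treg list held 4 higher genes, and without TGFb array 1 it held 2 lower ones and the follicular list 3 higher ones.

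Interferon response genes rose in 11 of 27 and fell in 1, Ifih1 (log2 difference -1.39, SE 0.15, adjusted p = 1.17e-06), with a median of 0.55. The guanylate-binding protein gene Gbp2 read 13.63, 13.81 and 13.52 without IL6 and 15.26, 15.38, 14.94 and 15.21 with it (log2 difference 1.57, SE 0.12, adjusted p = 8.76e-09), and Stat2, a subunit of the interferon-response complex, rose 2.32-fold (log2 difference 1.21, SE 0.13, adjusted p = 1.49e-06). Without slide B the list held 3 higher genes, without slide D 5, without TGFb array 1 it held 7 and without TGFb array 3 it held 6. Among AP-1, Irf and receptor-signal factors 2 of 23 rose, Jun among them (log2 difference 1.23, SE 0.10, adjusted p = 4.25e-08), and 3 fell, Nr4a2, Egr3 and Egr2, with log2 differences of -1.16, -1.01 and -0.69. The 31 cell cycle genes held 0 calls by limma (2 at an unadjusted p under 0.05), with a median of -0.05. Cholesterol synthesis genes had 2 lower and 0 higher of 20, Hmgcs1 and Idi1, whose adjusted p was 0.084 and 0.0515 with the replicate block. Glycolysis and hypoxia genes had 2 of 23 higher, Hif1a and P4ha1, and amino acid transport genes 1 of 20 higher, Trib3, and 2 lower, Atf3 and Slc7a3. In the IL2 and Stat5 list, 3 of 17 rose and 2 fell, the cytokine genes Il2 at -0.78 (adjusted p = 9.37e-06) and Lta at -0.85 (0.00805). The Th2 list held 3 higher and 2 lower of 19. Of 6 erythroid and stromal markers 1 rose, Pdpn, a call lost without slide B or D or TGFb array 3. Pdpn was well above background on 0 T-effector TGFb arrays. It passed the probe filter only through TGFb with IL6, so its call gives no support. Of 11 myeloid markers 0 passed in limma (3 at an unadjusted p under 0.05). Over all genes tested 4.26% were higher and 3.23% lower, so counts of 1 or 2 in lists this short say little about the lists. These short counts moved with single slides and arrays. With median centring the amino acid list held 0 higher and 0 lower genes. Glycolysis and hypoxia held 0 higher genes without slide D, and 1 without slide B or E, any TGFb array or array 1 of TGFb with IL6. The amino acid list held 0 higher genes without slide D or E or TGFb array 1, 0 lower without slide B or D, and 1 lower without slide E, TGFb array 1 or 2, or array 1 or 3 of TGFb with IL6. Cholesterol synthesis held 0 lower genes without slide B or D, TGFb array 3 or array 2 of TGFb with IL6, and 1 without slide E, TGFb array 1 or array 4 of TGFb with IL6. The IL2 list held 1 higher gene without slide B, D or E, TGFb array 1 or 3, or array 2 of TGFb with IL6, and 1 lower without slide D or E or TGFb array 2. The Th2 list held 0 lower genes without slide D or TGFb array 1, and 1 without slide B or E, TGFb array 3 or array 2 of TGFb with IL6. The AP-1 list held 1 higher gene, Jun, without any of the 3 slides, any TGFb array or array 1 of TGFb with IL6.

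**Figure D3:**
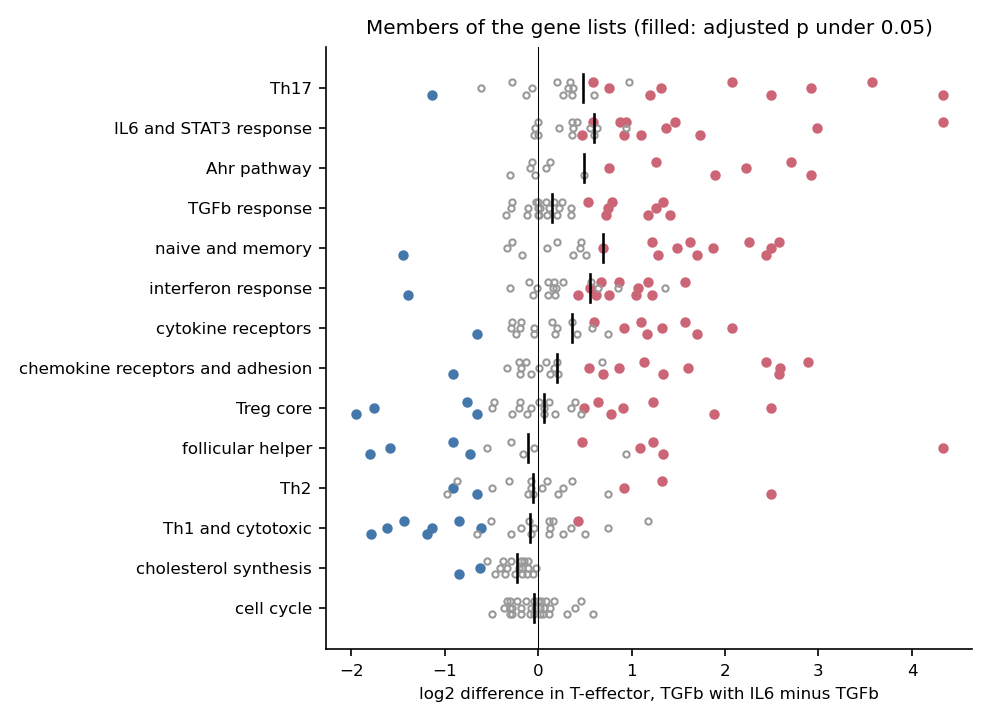
Each point is a tested member of 1 of 14 gene lists, placed by its log2 difference (TGFb with IL6 minus TGFb) in T-effector cells; filled red points rose, filled blue points fell, open points did not pass, and black bars are list medians. Th17, IL6, Ahr, naive and interferon members lie mostly to the right of 0, and the called Th1 members lie to the left in 7 of 8 cases.

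The genes with the largest changes were outside these lists in part. Serpinb5, a serine protease inhibitor family member, was not well above background on any TGFb array and read 10.15, 10.90, 10.41 and 10.62 with IL6, 22.1-fold above the floor (adjusted p = 1.94e-09). Serpinb1a, of the same family, read 6.62, 6.90 and 6.62 without IL6 and 10.86, 11.04, 10.70 and 10.81 with it (log2 difference 4.13, SE 0.18, adjusted p = 2.49e-12), with 2 of 3 TGFb arrays well above background. Further increases with separate arrays were in Plac8 (3.27), the transglutaminase Tgm2 (3.20), the membrane-curving protein gene Fnbp1l (3.13), the kinase Sgk1 (3.06), the protease Prss12 (3.04), the motor protein gene Myo6 (3.01) and Ctla2b (2.71), a protease inhibitor. On the lower side Nrn1, known as a neuronal growth gene, read 9.80, 9.49 and 9.38 in TGFb and 6.68, 6.85, 6.62 and 6.33 with IL6 (log2 difference -2.95, SE 0.36, adjusted p = 8.53e-06), and Tacc2, of the microtubule machinery, read 10.78, 10.51 and 10.44 without IL6 and 8.40, 8.40, 8.09 and 8.54 with it (log2 difference -2.21, SE 0.13, adjusted p = 2.49e-10). The myosin heavy chain Myh7 (-2.23), the chemokine Ccl1 (-2.13), the adaptor Stap1 (-2.10), the adhesion molecule Crtam (-1.98), the enolase Eno3 (-1.94) and the serpin Serpina3g (-1.88) were also lower and also separate between conditions. Of 34 called named genes with another tested probe, 36 of 37 other probes had the same direction, but only 16 of them passed the threshold on their own. The others that did not pass included both further probes of Tgm2 (0.026 and 0.16) and of Tacc2 (-0.29 and -0.07) and those of Stat3 (0.12), Stap1 (-0.07), Egr3 (-0.11), Fasl (-0.22), Socs2 (0.26) and Ifih1 (-0.29).

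IL6 was also added to T-effector cells without TGFb, on 3 other arrays, which were set against 3 arrays of IL2 alone. These were not matched by slide and dye as the TGFb arrays were. The IL2 arrays lay on slides A, D and C, those with IL6 on slides E, A and E. Position accounted for 31.6% and 36.1% of the log-ratio variance on the 2 slide E arrays. The part of the slides in the counts below was not tested. There 161 genes (0.808%) passed, and 107 of these also passed with TGFb, which is 66.5% of the 161 and 7.17% of the 1493. Of those 107, 102 had the same direction. The difference between the IL6 responses with and without TGFb was tested directly and passed for 197 genes (0.988%). The IL6 effect on Il17f was 3.57 with TGFb and 0.39 without it (difference 3.18, adjusted p = 8.34e-10), on Ahr 2.92 and 0.12 (difference 2.80, adjusted p = 2.72e-06), and on Serpinb1a 4.13 and -0.16 (difference 4.29, adjusted p = 2.37e-09). Il21 was high in both settings, 4.33 and 4.02 (difference 0.31, adjusted p = 0.967). Il17a gave 1.20 and 1.02 (difference 0.17, 0.967). A difference that misses the threshold does not show that the responses were alike.

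The same IL6 contrast in the Treg dye of the 7 arrays passed for 1120 genes (5.62%), and the difference between the 2 cell types passed for 141 genes (0.707%), a count that was 13 without slide D and 473 with spatial trends removed. Il17f, Ahr, Tcf7, Socs3 and Il21 rose with IL6 in Treg cells too, by 3.05, 2.16, 1.89, 2.75 and 4.54. Their differences between the cell types did not pass. For Tgfb3 the IL6 effect was 1.18 in T-effector and 0.30 in Treg cells (difference 0.87, adjusted p = 0.00244) and for Ldlrad4 1.41 and 0.52 (difference 0.90, 0.0144), both larger in T-effector. Serpinb1a gave 4.13 and 5.25 (difference -1.12, 0.00288), larger in Treg. Crtam was lowered by more in T-effector, -1.98 against -0.71 (difference -1.27, 0.0303), as was Myh7, -2.23 against -0.94 (difference -1.29, 0.039).

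**Figure D4:**
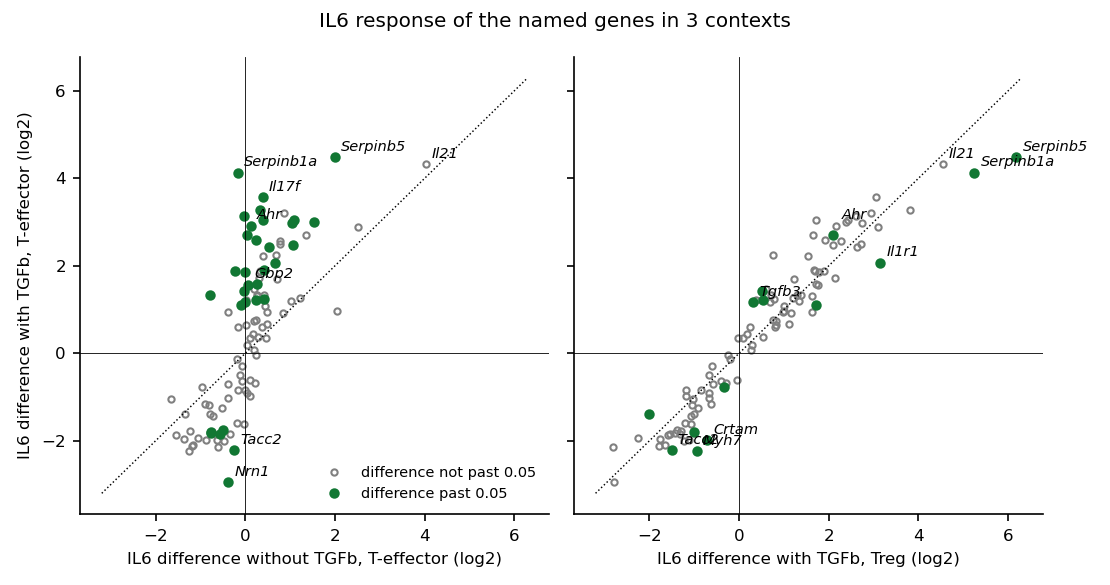
Each point is 1 of 103 named genes, with its log2 IL6 difference in T-effector cells under TGFb on the y axis and, on the x axis, that without TGFb in T-effector (left) or with TGFb in Treg (right). Filled points passed the test of the difference between the 2 responses; the dotted line marks equal responses, on which Il21 nearly lies in both panels.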

How the data were processed

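RNA of Treg and T-effector cells was hybridised to 13 two-colour Agilent arrays of 45018 spots. Per the submitters' processing notes, the arrays were read with Agilent Feature Extraction 9.5.1.1; the deposited intensity values are spot means and local backgrounds, not normalized. Here backgrounds were corrected with normexp (offset 50, limma 3.58.1, R 4.3.3), dyes by loess within arrays and channels by Aquantile between arrays; the offset shrinks differences of dim probes. Of 41174 probes, 28969 passed the filter (3 or more of the 26 channels well above background), and the brightest probe of each gene stood for it, leaving 19932 genes. The separate-channel fit held 8 groups and a dye term (intraspot correlation 0.45, 17 residual degrees of freedom), with limma's moderated test and Benjamini-Hochberg adjustment. The number of arrays limits the precision.

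Arrays 1, 2 and 3 of both conditions share slide and dye, and their deviations correlate by 0.83, 0.83 and 0.65 across genes, so they were treated as pairs in the alternative with the replicate block. Array 4 of TGFb with IL6 correlated by 0.63 with TGFb array 2, which lay on the same slide with the dyes swapped. The main fit counted array 4 as a separate array. In the replicate block it had a term of its own and so added nothing to the contrast. The text names anchor genes of the pathways, at most 4 called members a list, those that moved furthest, and members of the 15 highest and 15 lowest called genes with separate arrays. Csf2, Dapl1 and Ahrr were named outside this rule. Members and the 23 lists were chosen with earlier results of these data known. Some genes are not reported here. The code was tested on simulated data.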

Additional observations from a re-analysis of the deposited data

Results flagged for a closer look

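In 9 of the named genes 1 of the 4 arrays of TGFb with IL6 lay far from the other 3 in T-effector cells, which chance gives in about 1 in 20 groups. Array 1, of slide E, was apart in Igfbp4 (9.83), Ctla2b (12.4), Il4ra (11.7), Il7r (10.9) and Crtam (8.90). Array 2 was low in Nkg7 (10.6) and Ighm (9.65), array 3 was low in Sh2d1a (8.50) and array 4 was high in Il6st (9.93).

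The test of the difference between T-effector and Treg cells passed for 14 named genes. The difference was above 0 in Stat2 (0.68), Ldlrad4 (0.90), Tgfb3 (0.87) and Cd74 (0.62). It was below 0 in Myh7 (-1.29), Crtam (-1.27), Serpinb1a (-1.12), Cd200 (-0.78), Tacc2 (-0.71), Il6st (-0.61) and Il2 (-0.45). In Treg cells Il2 was well above background on 2 of 3 TGFb arrays and 2 of 4 arrays of TGFb with IL6, so its value lies near the floor. The fit also gave Cyp1b1 (0.62), Serpinb5 (-1.71) and Il1r1 (-1.08), but all 3 were not well above background on any T-effector TGFb array, so these values rest on a floor and give neither a size nor an order of the cell types.

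The IL6 response of T-effector cells differed with and without TGFb in 31 named genes. The arrays without TGFb were not matched by slide. It was more positive with TGFb, by the log2 amount given, in Serpinb1a (4.29), Il17f (3.18), Fnbp1l (3.16), Plac8 (2.93), Ahr (2.80), Prss12 (2.65), Gpr15 (2.35), Cxcr5 (2.11), Lgals3 (2.10), Sgk1 (1.96), Socs3 (1.94), Klrd1 (1.86), Gbp2 (1.52), Myo6 (1.47), Tiparp (1.47), Ldlrad4 (1.44), Igfbp4 (1.42), Il17ra (1.31), Il6st (1.20), Tgfb3 (1.19), Stat2 (0.99) and Jun (0.82). It was more negative with TGFb in Nrn1 (-2.58), Tacc2 (-1.96), Spin4 (-1.27), Tnfrsf9 (-1.26), Stk39 (-1.05) and Cd200 (-1.03). The fitted values of Cyp1b1 (2.68), Serpinb5 (2.48) and Il1r1 (1.42) rest on the same floor and are not measured amounts.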

How the results depend on the processing

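Of 88 called named genes, all 88 kept their sign in each of 24 alternative settings and 62 kept their call in all. The 1493 changed genes became 2257 with Agilent's processed signals, 361 with median centring, 3278 with the slide as a block, 618 with 7 T-effector channels only, and 600, 650 and 791 without slide B, D and E; leaving out 1 array gave 939 to 1316, the lowest without TGFb array 3 and 951 without TGFb array 1. The 141 genes differing between cell types became 392 with Agilent's signals, 54 with median centring, 44 with a normexp fit that kept flagged spots, 473 with spatial trends removed, 84 with no dye term, 328 with the slide as a block, and 25 and 13 without slide B and D; leaving out 1 array gave 35 (TGFb array 3) to 100. The 197 genes differing with and without TGFb became 298, 31 and 415 with Agilent's signals, median centring and the slide as a block, and 91, 56 and 80 without slide B, D and E. With the replicate block the count was 1467, and Ifng, Nfil3, Hmgcs1 and Idi1 were the named calls lost. Of 24 settings, calls were lost in 15 for Hmgcs1, 12 for Ifng, 10 for Socs1 and Slc7a3, 9 for Nfil3, 8 for Socs2, 7 for P4ha1 and Idi1, 5 for Lta, Egr2, Trib3, Pdpn, Rora and Stat3, 4 for Ccr4, Gbp3 and Hif1a and 3 for Atf3 and Ccl1. The uncalled Foxp3 turned to -0.49 with normexp on all spots, -0.036 with the slide as a block, and lay between -0.10 and 0.32 without 1 array. The uncalled Il6ra turned to 0.042 with median centring, 0.079 with the slide block, 0.071 with the replicate block and 0.10 without slide B, and lay between -0.25 and 0.081 without 1 array, and Ccr6 to 0.0086 without slide B. The cause of these changes was not tested. The deposited value table holds ratios within arrays and could not be used. Recounts of the gene lists under each setting were chosen after seeing the data.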
